A study of Rattus norvegicus with 9 samples.

Results

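Interferon response and antigen presentation genes were followed in rat primary chondrocytes, the cells that build cartilage matrix, exposed to the inflammatory cytokine IL-1β with or without dermal fibroblasts. The set was a list of 49 gene symbols, looked up by symbol in a table of 17588 genes. Of these 47 were found and 2 (Oas2 and Xaf1) are not analysed here. Poly(A) RNA of 9 libraries was measured in 3 groups of 3: chondrocytes with IL-1β and dermal fibroblasts (co-culture + IL-1β), chondrocytes with IL-1β alone (IL-1β), and chondrocytes in routine culture without IL-1β (control). The co-culture used a porous insert (transwell) which kept the fibroblasts in the chamber above the chondrocytes, and all libraries are labelled as primary chondrocyte, genotype WT. No group had fibroblasts without IL-1β, and the labels give neither the cytokine dose nor its duration, nor the length of co-culture or the age of the rats. Nothing in the labels says that replicates came from different rats or dishes, so each p-value refers to the scatter of these 9 libraries alone and that scatter may be technical.

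Type I interferons bind the IFNAR1-IFNAR2 receptor and interferon-γ binds IFNGR1-IFNGR2. Janus kinases on these receptors phosphorylate STAT proteins, which with interferon regulatory factors switch on antiviral genes and the genes that load peptides on class I major histocompatibility (MHC) molecules. Several of these genes, among them B2m and Tap1, also respond to NF-κB, the transcription factor activated by IL-1 receptors, and cartilage cells express both kinds of receptor.

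A filter on level split the members into an expressed part and a near-silent part. The levels had no gap at the filter, since Isg15, which passed, was at 0.35 FPKM in a control library. Of the 47 found, 35 reached 1 FPKM (fragments per kilobase of transcript, scaled to the mapped total) in at least 3 of the 9 libraries and were tested, and 12 were below that filter. Of all 17588 genes, 11732 passed the same filter, so having a part below it was not particular to the members. The 12 were under 1 FPKM in all 9 libraries: Irf8, Dhx58, Ifit1, Ifit3, Mx1, Mx2, Oas1a, Oasl, Rsad2, Gbp4, Gbp5 and Nlrc5. These include the antiviral effectors commonly used to report interferon signalling, such as the GTPases Mx1 and Mx2, viperin (Rsad2), and the RNA-binding proteins Ifit1 and Ifit3. Their highest single value was 0.68 FPKM, for Irf8 in an IL-1β library, and Rsad2 was listed at 0 in 8 libraries. Summed over the 12, the level was 1.53 to 1.88 FPKM in co-culture + IL-1β, 1.80 to 2.06 FPKM in IL-1β and 1.21 to 1.58 FPKM in control. At the other end, B2m, the light chain of class I MHC, averaged 262 ± 3.49 FPKM in co-culture + IL-1β, 291 ± 8.52 FPKM in IL-1β and 198 ± 4.96 FPKM in control (SD, n = 3 each).

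**Figure D1:**
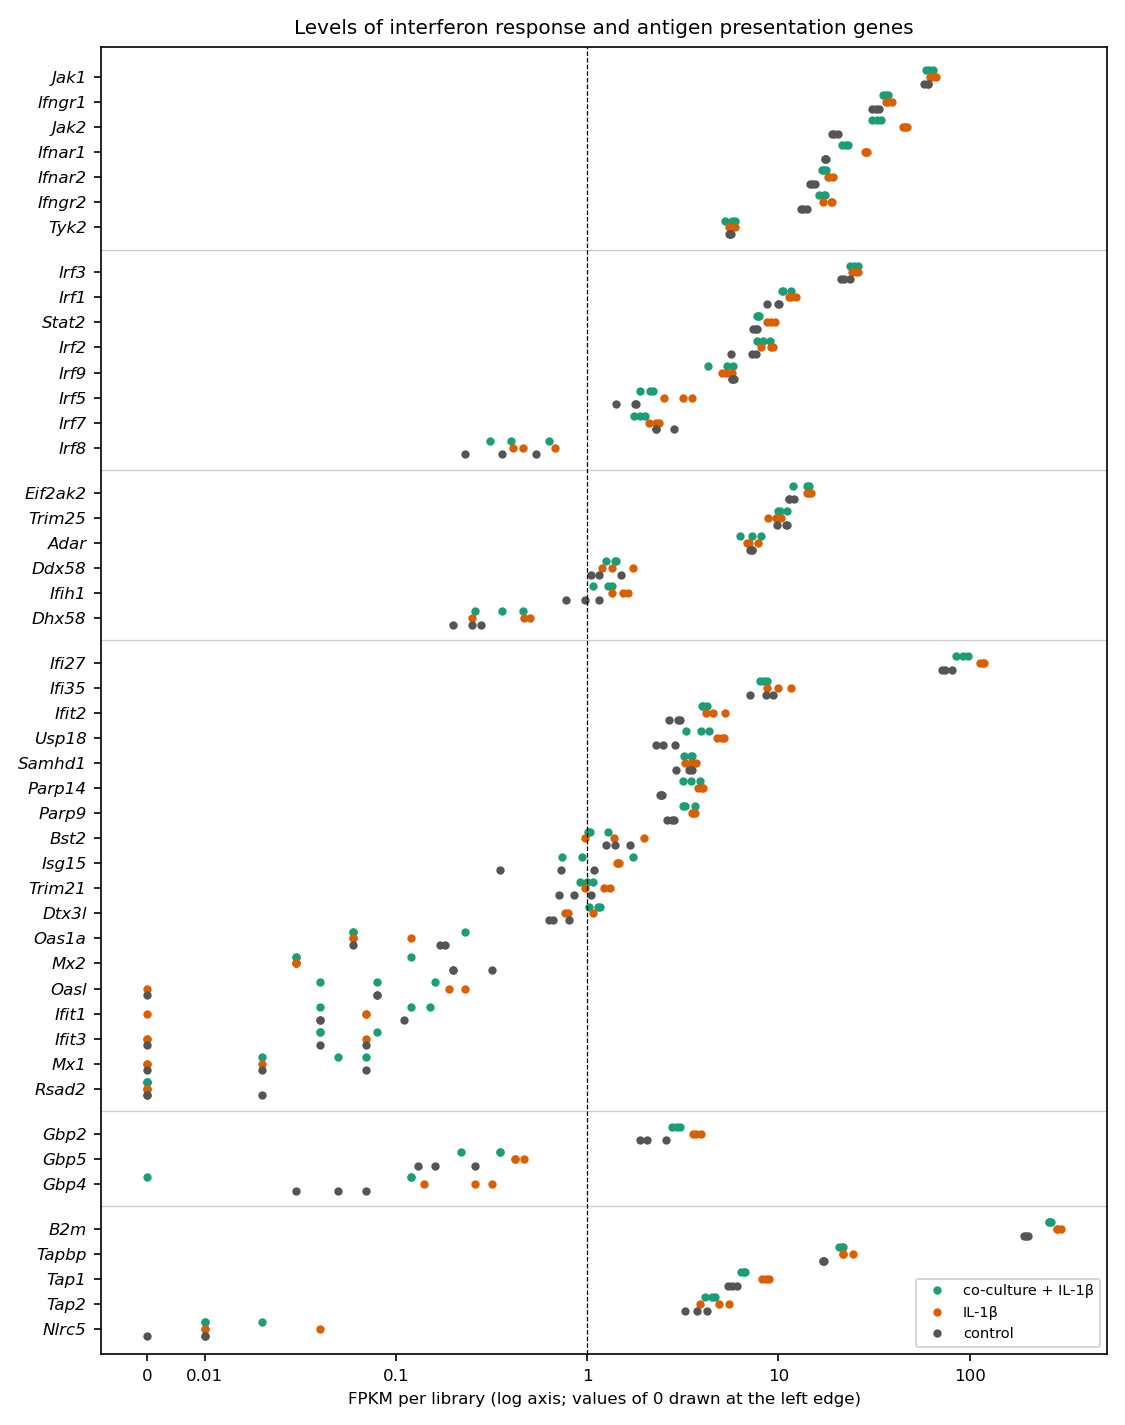
FPKM of each of the 47 members found, in each of the 9 libraries, on a log axis with values of 0 drawn at the left edge; members are grouped by role, every point is a library coloured by its group (co-culture + IL-1β, IL-1β or control), and the dashed line is 1 FPKM. The 12 members below the filter sit left of that line in all libraries, and B2m and Ifi27 lie farthest to the right.

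With IL-1β, most of the expressed members rose modestly and none fell by the test. Of the 35 tested members, 22 (62.9%) were higher in IL-1β than in control, where 26.5% of all 11732 tested genes were called higher. Among the 22, Isg15 met the filter only because of its IL-1β libraries. No member was called lower, against 20.2% of all tested genes called lower, and at an unadjusted p under 0.05 the limma count of lower members was also 0. The median change of the tested members was 0.29 on the log2(FPKM + 1) scale, against 0.02 over all tested genes. The changes ran between -0.13 and 1.18, and only Jak2 moved at least 2-fold on that scale, where changes of low genes come out too small. Calls used limma at a Benjamini-Hochberg adjusted p under 0.05. The split of all genes between higher and lower depended on scaling, with 3109 higher and 2370 lower on the values as deposited, 2247 and 3186 with every library brought to a common sum, 2291 and 3332 after quantile scaling, and 2723 and 2732 after median-of-ratios scaling. Under those scalings 21, 19 and 22 members were higher and 1, 1 and 0 were lower, the lower one being Trim25 in both cases (log2 change -0.20, adjusted p = 0.0378 and 0.0393).

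With dermal fibroblasts above the IL-1β-exposed chondrocytes, 9 members were lower than with IL-1β alone: Jak2, Irf5, Ifi27, Ifnar1, Tap1, Usp18, Gbp2, Stat2 and B2m. In co-culture + IL-1β against IL-1β, 9 of the 35 tested members (25.7%) were lower, where 10.1% of all tested genes were called lower. No member was higher, against 11.9% of all tested genes called higher, and the limma count of higher members at an unadjusted p under 0.05 was again 0. The members' median was -0.11 on the log2(FPKM + 1) scale, against 0.02 over all tested genes, and the range was -0.48 to 0.17. Without IL-1β replicate 3 the count of lower members was 5.

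Co-culture + IL-1β against control gave 17 higher members (48.6%) of 35, where 21.8% of all tested genes were called higher. Among the 17, Dtx3l met the filter only because of its co-culture + IL-1β libraries. One exception ran the other way, making 1 lower member (2.86%), Irf7, where 12.2% of all tested genes were called lower. The members' median was 0.19 on the log2(FPKM + 1) scale, against 0.04 over all tested genes, and the range was -0.27 to 0.70. Over all genes 2554 were higher and 1427 lower on the values as deposited, 1544 and 2006 with a common sum, 1641 and 2076 after quantile scaling, and 1854 and 1869 after median-of-ratios scaling. The higher members then numbered 12, 11 and 14, with 1 lower under each. The 3 comparisons share libraries, so the members' changes in one are not independent of those in another.

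**Figure D2:**
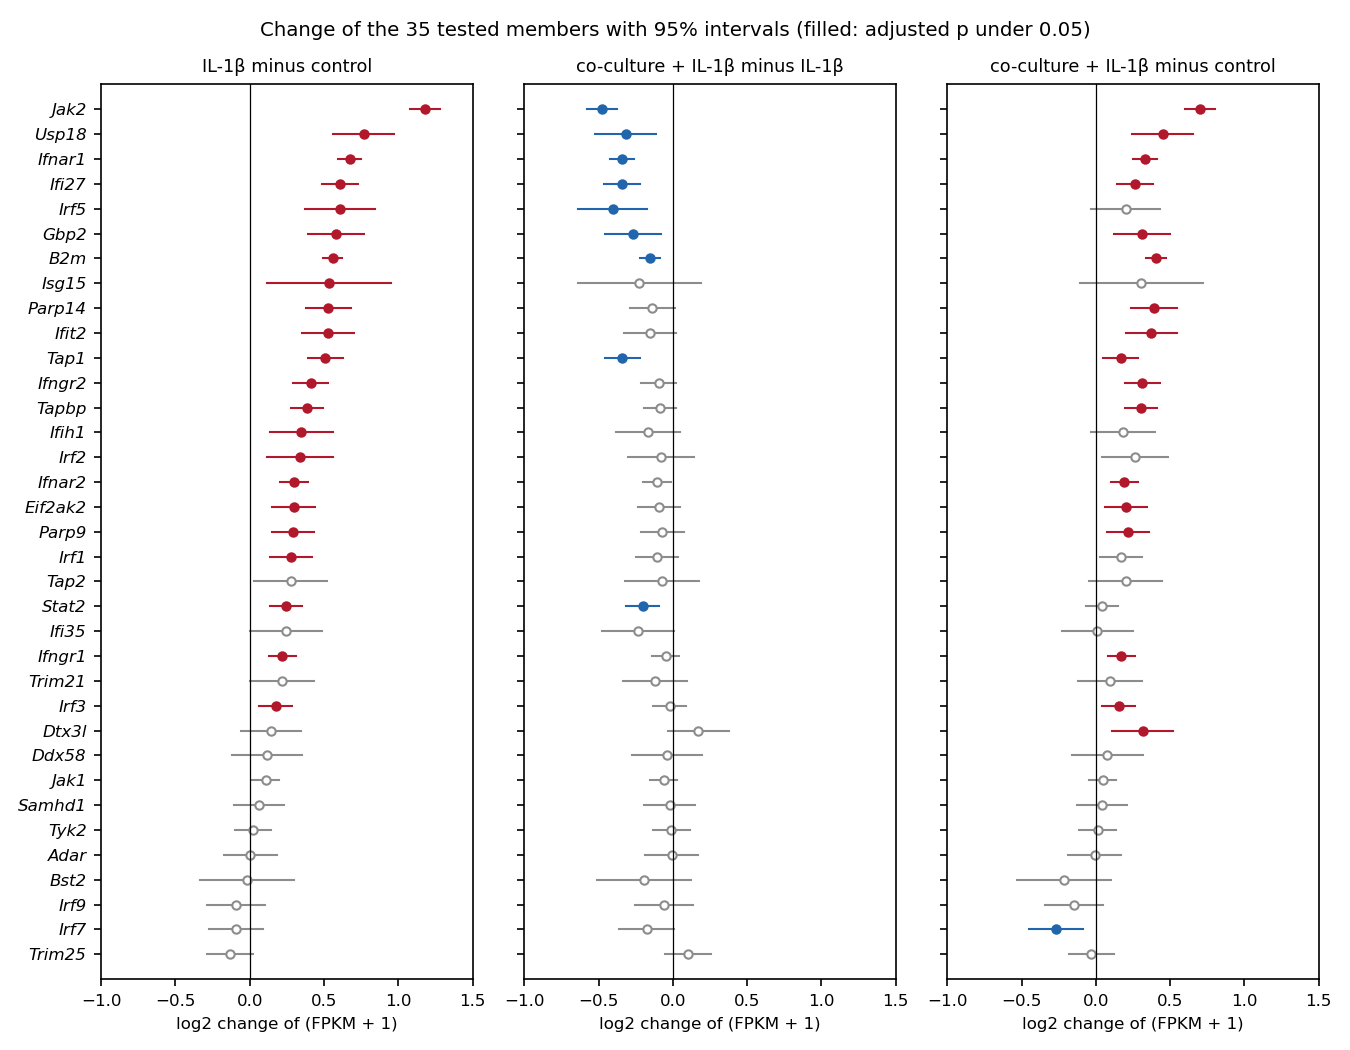
Change of each tested member in the 3 comparisons, as log2(FPKM + 1) differences with 95% confidence intervals from limma; filled points passed an adjusted p of 0.05. Jak2 stands at 1.18 in IL-1β against control, at -0.48 in co-culture + IL-1β against IL-1β and at 0.70 in co-culture + IL-1β against control.

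Promoter letters of the members were searched for short motifs of interferon signalling and NF-κB. The letters are given for 5 of the 6 members with the largest changes that have a promoter in the RefSeq table (Irf5, whose window holds no match, is left out). They are also given for 3 others chosen after the matches were seen. These hold more than one motif (Tap1, Tapbp) or belong to the near-silent members (Oas1a). Parp14, also picked after the matches were seen, is not printed, and its window holds an ISRE core and a GAS element. The sequences are the 250 bases before the annotated start, from RefSeq on rat GRCr8, 5′ to 3′ on the gene's strand. Capitals mark matches on either strand to the interferon-stimulated response element (ISRE) core, which is GAAA, any 2 bases and GAAA, to the STAT-bound GAS element, which is TTC, any 3 bases and GAA, and to an NF-κB motif, which is GGGA, any 2 bases and TTCC. The regions are chr1:236408655-236408904 (+) for Jak2, chr11:44211519-44211768 (+) for Ifnar1, chr6:128355062-128355311 (+) for Ifi27, chr2:234005477-234005726 (+) for Gbp2, chr3:129549080-129549329 (+) for B2m, chr20:4668544-4668793 (-) for Tap1, chr20:4967878-4968127 (-) for Tapbp and chr12:41330216-41330465 (+) for Oas1a.
Jak2: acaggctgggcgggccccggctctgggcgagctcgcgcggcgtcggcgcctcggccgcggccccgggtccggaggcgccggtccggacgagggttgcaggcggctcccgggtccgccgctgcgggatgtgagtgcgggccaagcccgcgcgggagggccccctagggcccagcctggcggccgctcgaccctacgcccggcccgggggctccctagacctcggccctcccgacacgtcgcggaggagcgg
Ifnar1: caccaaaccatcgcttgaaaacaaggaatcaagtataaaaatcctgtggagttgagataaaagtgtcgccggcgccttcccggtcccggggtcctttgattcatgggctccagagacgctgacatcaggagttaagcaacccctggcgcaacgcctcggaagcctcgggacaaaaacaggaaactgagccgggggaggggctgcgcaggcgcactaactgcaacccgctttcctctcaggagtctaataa
Ifi27: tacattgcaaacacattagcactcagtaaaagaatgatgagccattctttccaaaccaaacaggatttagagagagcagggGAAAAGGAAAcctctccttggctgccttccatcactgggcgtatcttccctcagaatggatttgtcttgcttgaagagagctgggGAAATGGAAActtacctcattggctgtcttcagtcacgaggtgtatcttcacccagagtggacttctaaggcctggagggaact
Gbp2: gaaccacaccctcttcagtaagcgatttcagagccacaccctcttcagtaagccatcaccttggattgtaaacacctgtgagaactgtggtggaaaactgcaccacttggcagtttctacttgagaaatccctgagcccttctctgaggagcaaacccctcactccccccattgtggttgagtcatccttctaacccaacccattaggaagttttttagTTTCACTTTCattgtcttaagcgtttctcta
B2m: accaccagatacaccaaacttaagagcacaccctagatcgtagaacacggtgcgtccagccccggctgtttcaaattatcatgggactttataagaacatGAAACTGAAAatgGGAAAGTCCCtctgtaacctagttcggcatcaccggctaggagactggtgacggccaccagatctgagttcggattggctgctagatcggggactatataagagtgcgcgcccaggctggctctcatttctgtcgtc
Tap1: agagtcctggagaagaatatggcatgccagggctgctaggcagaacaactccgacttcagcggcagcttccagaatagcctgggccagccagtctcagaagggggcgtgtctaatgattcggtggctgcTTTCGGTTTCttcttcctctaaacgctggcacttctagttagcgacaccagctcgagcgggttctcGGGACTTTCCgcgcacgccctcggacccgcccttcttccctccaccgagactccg
Tapbp: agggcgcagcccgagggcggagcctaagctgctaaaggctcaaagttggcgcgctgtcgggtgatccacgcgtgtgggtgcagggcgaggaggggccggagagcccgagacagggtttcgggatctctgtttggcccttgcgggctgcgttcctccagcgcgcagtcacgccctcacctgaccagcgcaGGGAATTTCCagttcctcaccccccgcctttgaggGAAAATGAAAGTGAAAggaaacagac
Oas1a: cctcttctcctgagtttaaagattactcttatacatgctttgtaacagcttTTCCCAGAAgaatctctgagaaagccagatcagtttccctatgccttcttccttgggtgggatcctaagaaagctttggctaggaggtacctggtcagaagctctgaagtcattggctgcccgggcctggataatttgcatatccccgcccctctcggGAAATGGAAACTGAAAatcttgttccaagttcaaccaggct
The B2m window holds an ISRE core and, closer to the start, an NF-κB motif, and the windows of Tap1 and Tapbp hold both kinds too. Ifi27 has ISRE cores and no NF-κB letters, Gbp2 has 1 ISRE core, and the windows of Jak2 and Ifnar1 hold none of the 3 motifs. Oas1a, which stayed at 0.23 FPKM or less in all libraries, has 2 overlapping ISRE cores and a GAS element.

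Across the 35 members with a promoter in the RefSeq table, 17 hold an ISRE core, against 3.41% of all 33469 promoters there. The list was chosen for interferon response, so that excess can come from the choice and is no result of these data. An NF-κB motif is present in 6 of the 35, against 1.08% of all promoters, and a GAS element in 8, against 7.67%. Of the 18 members called higher in IL-1β against control that have a promoter, 8 hold an ISRE core and 5 an NF-κB motif (B2m, Tap1, Tapbp, Ifngr2 and Irf3). Of the 9 tested members without that call, 4 hold an ISRE core and 0 an NF-κB motif, and of the 8 below the filter, 5 hold an ISRE core and 1 (Gbp5) an NF-κB motif. Motifs of different kinds overlapped in 1 member, Bst2, where a GAS element overlaps an ISRE core. A match describes letters and is not evidence of binding.

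Jak2 had the largest change of the tested members in all 3 comparisons on the log2(FPKM + 1) scale, although by ratio of mean FPKM Irf5 was further down in co-culture + IL-1β against IL-1β (1.49-fold), and the 4 receptor subunits were also higher in IL-1β than in control. Jak2, the kinase of the interferon-γ receptor and of many cytokine receptors, was at 30.8, 32.7 and 34.5 FPKM in co-culture + IL-1β, at 44.8, 45.7 and 47.0 FPKM in IL-1β and at 20.5, 19.0 and 19.6 FPKM in control. All 3 groups are apart from each other, with IL-1β highest and control lowest. Its mean was 2.33-fold higher in IL-1β than in control (log2 change 1.18, SE 0.046, adjusted p = 1.82e-08). In co-culture + IL-1β it was 1.40-fold lower than in IL-1β (log2 change -0.48, SE 0.046, adjusted p = 7.60e-05) and 1.66-fold higher than in control.

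Ifnar1, the low-affinity chain of the type I interferon receptor, had 21.5, 23.2 and 22.6 FPKM in co-culture + IL-1β, 29.1, 28.2 and 28.8 FPKM in IL-1β and 17.8, 17.6 and 17.6 FPKM in control. Again the groups did not overlap, in the same order. The mean in IL-1β was 1.63-fold that in control (log2 change 0.67, SE 0.035, adjusted p = 1.79e-07), and in co-culture + IL-1β it was 1.28-fold lower than in IL-1β (log2 change -0.34, SE 0.035, adjusted p = 1.18e-04). Ifngr2, the signalling chain of the interferon-γ receptor, had 17.4, 17.4 and 16.3 FPKM in co-culture + IL-1β, 19.0, 17.0 and 18.9 FPKM in IL-1β and 13.0, 14.1 and 13.5 FPKM in control. Both IL-1β groups lay above control, and they overlapped each other. Its log2 change was 0.41 in IL-1β against control (SE 0.052, adjusted p = 1.17e-04) and -0.10 in co-culture + IL-1β against IL-1β, which did not pass (95% interval -0.21 to 0.02, adjusted p = 0.224).

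The high-affinity chain Ifnar2 averaged 17.3 ± 0.486 FPKM in co-culture + IL-1β, 18.7 ± 0.630 FPKM in IL-1β and 15.0 ± 0.451 FPKM in control (SD, n = 3 each). The ligand-binding chain Ifngr1 averaged 36.4 ± 1.04 FPKM in co-culture + IL-1β, 37.7 ± 1.42 FPKM in IL-1β and 32.2 ± 1.20 FPKM in control. The chains Ifnar2 and Ifngr1 were higher in IL-1β than in control, by log2 changes of 0.30 and 0.22, and neither passed in co-culture + IL-1β against IL-1β. The kinases Jak1 and Tyk2 were not called in any comparison. Jak1, which serves both interferon receptors, averaged 61.4 ± 2.42 FPKM in co-culture + IL-1β, 64.1 ± 2.44 FPKM in IL-1β and 59.5 ± 1.67 FPKM in control. Its change in IL-1β against control missed the threshold (log2 change 0.11, 95% interval 0.02 to 0.20, adjusted p = 0.0507). It passed without IL-1β replicate 1 (adjusted p = 0.0446), with a mean of at least 5 FPKM (0.0470) and with only the 6 libraries (0.0465). Tyk2, the kinase on IFNAR1, averaged 5.64 ± 0.355 FPKM in co-culture + IL-1β, 5.69 ± 0.207 FPKM in IL-1β and 5.58 ± 0.0902 FPKM in control, with a log2 change of 0.02 in IL-1β against control (95% interval -0.10 to 0.15). In all, 5 of the 7 receptor and kinase genes were higher in IL-1β than in control, 2 were lower in co-culture + IL-1β than in IL-1β, and 5 were higher in co-culture + IL-1β than in control. Of the last 5, Ifngr1 lost its call with a common sum (adjusted p = 0.118) and with quantile scaling (0.0554). Over all tested genes 26.5% were higher, 10.1% lower and 21.8% higher in these comparisons.

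**Figure D3:**
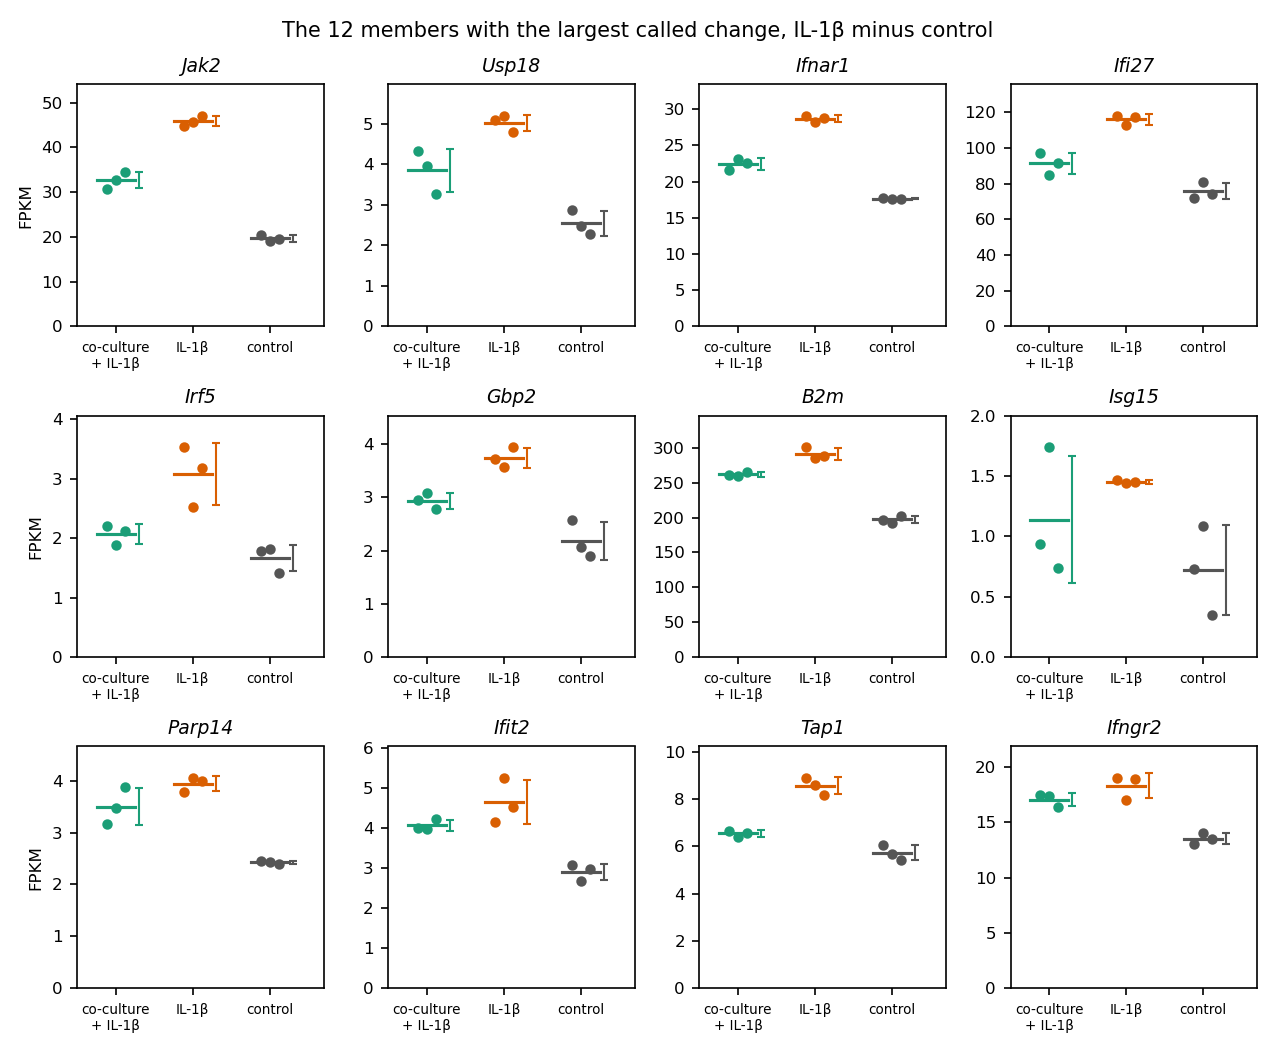
FPKM in each library for the 12 members with the largest called change in IL-1β against control, 1 panel a gene, with co-culture + IL-1β at the left, IL-1β in the middle and control at the right; points are libraries, horizontal lines are means and error bars are SD (n = 3 each). In the panels of Jak2, Ifnar1, Tap1 and B2m the 3 groups do not overlap and IL-1β is highest.

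Among the 7 tested transcription factors, 5 were higher in IL-1β than in control, 2 were lower in co-culture + IL-1β than in IL-1β, and 1 (Irf3) was higher and 1 (Irf7) lower in co-culture + IL-1β than in control. The shares over all tested genes were 26.5% higher, 10.1% lower, and 21.8% higher and 12.2% lower in these comparisons. A count of 1 of 7 is near the shares of the third comparison. Stat2, the STAT particular to type I and III interferon signalling, had 7.72, 7.80 and 7.96 FPKM in co-culture + IL-1β, 8.70, 9.18 and 9.64 FPKM in IL-1β and 7.33, 7.66 and 7.72 FPKM in control. The IL-1β libraries lay above both other groups, which met at 7.72 FPKM. Its log2 change was 0.25 in IL-1β against control (SE 0.048, adjusted p = 0.00204) and -0.20 in co-culture + IL-1β against IL-1β (SE 0.048, adjusted p = 0.0138), and the second was lost without IL-1β replicate 3 (adjusted p = 0.0550). Irf9, the DNA-binding partner of STAT2, averaged 5.15 ± 0.781 FPKM in co-culture + IL-1β, 5.37 ± 0.330 FPKM in IL-1β and 5.78 ± 0.0794 FPKM in control and passed in no comparison; its log2 change in IL-1β against control was -0.09 (95% interval -0.29 to 0.10).

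Irf5, a factor that promotes inflammatory cytokine genes downstream of Toll-like receptors, had 2.20, 1.88 and 2.12 FPKM in co-culture + IL-1β, 3.53, 2.52 and 3.18 FPKM in IL-1β and 1.78, 1.81 and 1.42 FPKM in control. All 3 groups were apart, with IL-1β highest, but co-culture + IL-1β against control was not called (log2 change 0.20, adjusted p = 0.169). The Irf5 mean was 1.84-fold higher in IL-1β than in control (log2 change 0.61, SE 0.104, adjusted p = 9.31e-04). It was 1.49-fold lower in co-culture + IL-1β than in IL-1β (log2 change -0.40, adjusted p = 0.0209). The second call was lost when IL-1β replicate 1, IL-1β replicate 3 or co-culture + IL-1β replicate 2 was left out, with adjusted p up to 0.0735. Irf1, the interferon-γ-induced activator of class I genes, averaged 10.9 ± 0.608 FPKM in co-culture + IL-1β, 11.8 ± 0.532 FPKM in IL-1β and 9.57 ± 0.748 FPKM in control; it was higher in IL-1β than in control (log2 change 0.28, adjusted p = 0.00498) and passed neither other comparison. Irf2, a competitor of Irf1, and Irf3, which cytosolic sensors activate without new synthesis, were also higher in IL-1β than in control, by log2 changes of 0.34 and 0.17. The Irf2 call was lost without IL-1β replicate 2 or 3 (adjusted p = 0.0551 and 0.0624), and the Irf3 call without control replicate 3 or IL-1β replicate 1 (0.0616 and 0.0570) and with a common sum or quantile scaling. In co-culture + IL-1β against control, Irf3 (log2 change 0.15, adjusted p = 0.0374) lost its call without any of control replicates 1 and 3 and co-culture + IL-1β replicates 1 and 2 (adjusted p 0.0720 to 0.128). The same Irf3 call was lost with a common sum (0.189), median-of-ratios (0.119) and quantile scaling (0.185), with no filter, with only the 6 libraries and with no trend. Irf2 gained a call in co-culture + IL-1β against control without control replicate 1 (log2 change 0.34, adjusted p = 0.0384).

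Irf7, the factor that amplifies type I interferon production, was the member called lower in co-culture + IL-1β than in control. It had 1.89, 2.00 and 1.75 FPKM in co-culture + IL-1β, 2.37, 2.11 and 2.28 FPKM in IL-1β and 2.29, 2.86 and 2.28 FPKM in control. Every co-culture + IL-1β library lay below every control library, while IL-1β and control overlapped. It was 1.32-fold lower in co-culture + IL-1β than in control (log2 change -0.27, SE 0.082, adjusted p = 0.0306), and with only the 6 libraries of that comparison the call was lost (adjusted p = 0.0548). It was also lost without control replicate 2 (adjusted p = 0.102) or co-culture + IL-1β replicate 1 or 3 (0.0615 and 0.0963). Irf8, mainly a factor of myeloid and B cells, stayed at 0.23 to 0.68 FPKM.

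Of the 5 tested RNA sensors and their partners, 2 were higher in IL-1β than in control and 1 was higher in co-culture + IL-1β than in control, and none was called in co-culture + IL-1β against IL-1β, where the limma count at an unadjusted p under 0.05 was 0 in either direction. Over all tested genes 26.5% were higher in IL-1β and 21.8% in co-culture + IL-1β than in control, and 1 of 5 sensors is at the second share. MDA5 (Ifih1), which detects long double-stranded RNA, averaged 1.23 ± 0.146 FPKM in co-culture + IL-1β, 1.51 ± 0.143 FPKM in IL-1β and 0.973 ± 0.190 FPKM in control, with a log2 change of 0.35 in IL-1β against control (adjusted p = 0.0138), which was lost without control replicate 1 or IL-1β replicate 2 (adjusted p = 0.0528 and 0.0504) and with quantile scaling (0.0612). PKR (Eif2ak2), a kinase that halts translation on double-stranded RNA, averaged 13.5 ± 1.34 FPKM in co-culture + IL-1β, 14.4 ± 0.265 FPKM in IL-1β and 11.6 ± 0.364 FPKM in control. It was called higher in IL-1β (log2 change 0.29, adjusted p = 0.00365) and in co-culture + IL-1β (log2 change 0.20, adjusted p = 0.0349) than in control, although the libraries of co-culture + IL-1β and control overlapped. The second call was lost without any of control replicates 1 and 2 and co-culture + IL-1β replicates 2 and 3 (adjusted p 0.0923 to 0.121). It was also lost with a common sum (0.147), median-of-ratios (0.0709) and quantile scaling (0.0846), with no filter and with only the 6 libraries. RIG-I (Ddx58) averaged 1.35 ± 0.0872 FPKM in co-culture + IL-1β, 1.42 ± 0.277 FPKM in IL-1β and 1.23 ± 0.236 FPKM in control, and passed in no comparison. The RNA-editing enzyme Adar averaged 7.20 ± 0.896 FPKM in co-culture + IL-1β, 7.23 ± 0.541 FPKM in IL-1β and 7.21 ± 0.107 FPKM in control. Trim25, the ubiquitin ligase that assists RIG-I, averaged 10.4 ± 0.621 FPKM in co-culture + IL-1β, 9.62 ± 0.762 FPKM in IL-1β and 10.6 ± 0.685 FPKM in control. Neither of these passed in any comparison. Lgp2 (Dhx58), the regulator of the other sensors, was at 0.20 to 0.50 FPKM.

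The ubiquitin-like modifier ISG15 and its protease were both called higher in IL-1β than in control, at low levels, though the Isg15 call did not hold without the filter. Usp18, which removes ISG15 and restrains IFNAR2, had 4.33, 3.95 and 3.27 FPKM in co-culture + IL-1β, 5.08, 5.19 and 4.79 FPKM in IL-1β and 2.88, 2.48 and 2.28 FPKM in control. The groups did not overlap, and IL-1β was highest. Its mean was 1.97-fold higher in IL-1β than in control (log2 change 0.77, SE 0.092, adjusted p = 8.19e-05). In co-culture + IL-1β it was 1.30-fold lower than in IL-1β (log2 change -0.32, adjusted p = 0.0347), a call lost in 7 of the 14 alternatives. Leaving out any 1 IL-1β library gave an adjusted p of 0.0598 to 0.0987, and leaving out co-culture + IL-1β replicate 2 or 3 gave 0.0694 or 0.103. Isg15 itself had 0.940, 1.74 and 0.740 FPKM in co-culture + IL-1β, 1.47, 1.44 and 1.45 FPKM in IL-1β and 0.730, 1.09 and 0.350 FPKM in control. The IL-1β libraries were close together above all control libraries, while the co-culture + IL-1β libraries spanned both. Its log2 change in IL-1β against control was 0.53 (SE 0.186, adjusted p = 0.0393), and 7 of the 14 alternatives lost it. Isg15 met the filter only because of its IL-1β libraries, so this call is not independent of the filter. With no filter the adjusted p was 0.0645. Without control replicate 1 or 3 the adjusted p was 0.0757 or 0.136, and without any 1 IL-1β library it was 0.0815 to 0.0868.

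Several expressed antiviral effectors rose with IL-1β. Ifi27, a mitochondrial interferon-inducible protein and the second most abundant member, had 97.3, 85.1 and 91.8 FPKM in co-culture + IL-1β, 118, 113 and 118 FPKM in IL-1β and 72.0, 81.1 and 74.5 FPKM in control. The 3 groups were apart, with IL-1β highest and control lowest. Its mean was 1.53-fold higher in IL-1β than in control (log2 change 0.61, SE 0.055, adjusted p = 9.67e-06) and 1.27-fold lower in co-culture + IL-1β than in IL-1β (log2 change -0.34, SE 0.055). Ifit2, which binds RNA and limits translation, had 4.01, 3.97 and 4.23 FPKM in co-culture + IL-1β, 4.16, 5.25 and 4.53 FPKM in IL-1β and 3.07, 2.69 and 2.98 FPKM in control. Both IL-1β groups lay above control and overlapped each other. Ifit2 was higher in IL-1β (log2 change 0.53, adjusted p = 3.47e-04) and in co-culture + IL-1β (log2 change 0.37, adjusted p = 0.00454) than in control, whereas its relatives Ifit1 and Ifit3 reached no more than 0.15 and 0.08 FPKM in any library.

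Parp14, a mono-ADP-ribosyltransferase, had 3.16, 3.47 and 3.87 FPKM in co-culture + IL-1β, 3.78, 4.05 and 3.99 FPKM in IL-1β and 2.45, 2.43 and 2.39 FPKM in control. Control lay below both other groups, which overlapped. Its log2 change was 0.53 in IL-1β against control (SE 0.068, adjusted p = 1.34e-04) and 0.39 in co-culture + IL-1β against control (SE 0.068, adjusted p = 0.00166). Parp9, a partner of the ubiquitin ligase Dtx3l, averaged 3.37 ± 0.267 FPKM in co-culture + IL-1β, 3.58 ± 0.0666 FPKM in IL-1β and 2.75 ± 0.117 FPKM in control, and was higher in both IL-1β groups than in control; the call in co-culture + IL-1β was lost without control replicate 1 or 2 or co-culture + IL-1β replicate 3 (adjusted p 0.0551 to 0.0839), with a common sum (0.0859) or quantile scaling (0.0633) and with only the 6 libraries (0.0502). Dtx3l averaged 1.11 ± 0.0794 FPKM in co-culture + IL-1β, 0.877 ± 0.168 FPKM in IL-1β and 0.697 ± 0.0907 FPKM in control, was called only in co-culture + IL-1β against control (log2 change 0.32, adjusted p = 0.0238), and had the highest change of all members in co-culture + IL-1β against IL-1β, 0.17 (95% interval -0.03 to 0.38, not called). Dtx3l met the filter only because of its co-culture + IL-1β libraries (1.14, 1.02 and 1.17 FPKM). Its call and that rank are therefore not independent of the filter. The call was lost without any of control replicates 1 and 3 and co-culture + IL-1β replicates 1 and 3 (adjusted p 0.0582 to 0.0759), and with quantile scaling (0.179). The difference between the Parp9 and Dtx3l changes was not tested.

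The effectors Ifi35, Bst2, Samhd1 and Trim21 passed in no comparison. Tetherin (Bst2), which holds budding virus at the membrane, averaged 1.11 ± 0.150 FPKM in co-culture + IL-1β, 1.44 ± 0.508 FPKM in IL-1β and 1.45 ± 0.214 FPKM in control. Samhd1, which depletes nucleotides, averaged 3.41 ± 0.191 FPKM in co-culture + IL-1β, 3.47 ± 0.230 FPKM in IL-1β and 3.29 ± 0.344 FPKM in control. The antibody receptor Trim21 averaged 0.997 ± 0.0751 FPKM in co-culture + IL-1β, 1.17 ± 0.171 FPKM in IL-1β and 0.870 ± 0.171 FPKM in control. Libraries of the 3 groups overlapped for each of these 3 genes. For Ifi35 the averages were 8.38 ± 0.330 FPKM in co-culture + IL-1β, 10.1 ± 1.52 FPKM in IL-1β and 8.36 ± 1.13 FPKM in control, and without control replicate 3 or IL-1β replicate 2 it was called higher in IL-1β than in control (adjusted p = 0.0489 and 0.0298). Over the 11 tested effectors and the ISG15 pair, 6 were higher in IL-1β than in control, 2 (Usp18 and Ifi27) lower in co-culture + IL-1β than in IL-1β, and 6 higher in co-culture + IL-1β than in control. The matching shares of all tested genes were 26.5%, 10.1% and 21.8%.

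Below the filter the fit without a filter gave few calls, all on tiny levels. Mx2 was at 0.120, 0.030 and 0.030 FPKM in co-culture + IL-1β, at 0.030 FPKM in each IL-1β library and at 0.200, 0.320 and 0.200 FPKM in control, and was called lower in both comparisons with control (log2 changes -0.27 and -0.23 for IL-1β and co-culture + IL-1β). Mx1, Oas1a, Oasl and Nlrc5, the transactivator of class I genes, had no call, with Nlrc5 at 0.04 FPKM or less in every library. Genes of families with near-identical copies (Mx, Oas, Ifit, Gbp and the RT1 class I genes) are uncertain, since reads could have been split between copies.

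Guanylate-binding proteins, GTPases that attack pathogen-holding vacuoles, were represented by Gbp2 alone among the tested members. Gbp2 had 2.95, 3.07 and 2.78 FPKM in co-culture + IL-1β, 3.71, 3.57 and 3.94 FPKM in IL-1β and 2.58, 2.06 and 1.90 FPKM in control. IL-1β was above co-culture + IL-1β, and co-culture + IL-1β above control, without overlap. Its mean was 1.72-fold higher in IL-1β than in control (log2 change 0.58, SE 0.084, adjusted p = 2.97e-04). The lower level in co-culture + IL-1β than in IL-1β (log2 change -0.27, adjusted p = 0.0462) was lost in 11 of the 14 alternatives, and leaving out any 1 of the 6 libraries gave an adjusted p of 0.0735 to 0.133. The higher level in co-culture + IL-1β than in control (log2 change 0.31, adjusted p = 0.0174) was lost without control replicate 2 or 3 or co-culture + IL-1β replicate 2 (adjusted p 0.0559 to 0.0634). Its relatives were near 0: Gbp5 was at 0.350, 0.220 and 0.350 FPKM in co-culture + IL-1β, 0.420, 0.420 and 0.470 FPKM in IL-1β and 0.260, 0.130 and 0.160 FPKM in control, and Gbp4 at 0.32 FPKM or less. Without a filter Gbp4 and Gbp5 were called higher in IL-1β than in control (log2 changes 0.24 and 0.28).

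Of the 4 tested antigen presentation members, 3 were higher in IL-1β than in control, 2 (B2m and Tap1) lower in co-culture + IL-1β than in IL-1β, and 3 higher in co-culture + IL-1β than in control. The matching shares of all tested genes were 26.5%, 10.1% and 21.8%. B2m was at 260, 259 and 266 FPKM in co-culture + IL-1β, at 301, 285 and 287 FPKM in IL-1β and at 197, 193 and 203 FPKM in control. The 3 groups were well apart, with control lowest. B2m was 1.47-fold higher in IL-1β than in control (log2 change 0.56, SE 0.030, adjusted p = 1.90e-07), 1.11-fold lower in co-culture + IL-1β than in IL-1β (log2 change -0.15, SE 0.030, adjusted p = 0.00525) and 1.33-fold higher in co-culture + IL-1β than in control (adjusted p = 4.42e-06). Tap1, a subunit of the transporter that moves peptides into the endoplasmic reticulum, had 6.65, 6.39 and 6.58 FPKM in co-culture + IL-1β, 8.88, 8.59 and 8.17 FPKM in IL-1β and 6.05, 5.69 and 5.42 FPKM in control. Its groups did not overlap, and co-culture + IL-1β lay much nearer to control than to IL-1β. The log2 change was 0.51 in IL-1β against control (SE 0.053, adjusted p = 2.86e-05), -0.34 in co-culture + IL-1β against IL-1β (SE 0.053, adjusted p = 0.00146) and 0.17 in co-culture + IL-1β against control (adjusted p = 0.0345). The last was lost without control replicate 2 or 3 or any 1 co-culture + IL-1β library (adjusted p 0.0554 to 0.118), under common-sum, median-of-ratios and quantile scaling, with no filter and with only the 6 libraries.

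Its partner Tap2 averaged 4.43 ± 0.272 FPKM in co-culture + IL-1β, 4.75 ± 0.824 FPKM in IL-1β and 3.74 ± 0.495 FPKM in control, and passed in no comparison (log2 change 0.27 in IL-1β against control, 95% interval 0.03 to 0.52, adjusted p = 0.0679), although it was called there without control replicate 3 or IL-1β replicate 3 (adjusted p = 0.0420 and 0.0115). Tapbp (tapasin), which bridges class I molecules to the transporter, averaged 21.4 ± 0.499 FPKM in co-culture + IL-1β, 22.7 ± 1.62 FPKM in IL-1β and 17.1 ± 0.144 FPKM in control. It was higher in IL-1β (log2 change 0.39, adjusted p = 1.06e-04) and in co-culture + IL-1β (log2 change 0.30, adjusted p = 9.47e-04) than in control, and was not called between the IL-1β groups. B2m, Tap1 and Tapbp are the tested members whose promoter windows hold both an ISRE core and an NF-κB motif.

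Many other genes of class I processing changed too. Of 22 tested genes outside the list, 15 were higher and 1 lower in IL-1β than in control, 2 higher and 9 lower in co-culture + IL-1β than in IL-1β, and 12 higher in co-culture + IL-1β than in control, with median log2 changes of 0.45, -0.18 and 0.22. Over all tested genes 26.5% were higher and 20.2% lower in the first of these comparisons. The shares were 11.9% higher and 10.1% lower in the second, and 21.8% higher in the third. The 2 of 22 higher in the second are near the general share. RT1-A2, a class I heavy chain, averaged 70.2 ± 2.08 FPKM in co-culture + IL-1β, 86.1 ± 4.43 FPKM in IL-1β and 39.4 ± 1.65 FPKM in control (log2 change 1.11 in IL-1β against control, adjusted p = 2.17e-08). The immunoproteasome subunit Psmb9 averaged 6.10 ± 0.559 FPKM in co-culture + IL-1β, 9.53 ± 0.674 FPKM in IL-1β and 3.47 ± 0.539 FPKM in control, with log2 changes of 1.24 in IL-1β against control and -0.57 in co-culture + IL-1β against IL-1β. Psme1, a subunit of the proteasome activator PA28, was higher in IL-1β than in control (log2 change 0.66). Class II genes were mostly silent, with 9 of 14 below the filter. Of the 5 tested, Ifi30 and Rfx5 were called higher in IL-1β than in control, where 26.5% of all tested genes were. None was called in co-culture + IL-1β against IL-1β, where the limma count at an unadjusted p under 0.05 was also 0.

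Interferon-stimulated genes outside the list were a mixed set. Of 36 tested, 15 were higher and 4 lower in IL-1β than in control, 1 higher and 7 lower in co-culture + IL-1β than in IL-1β, and 12 higher and 2 lower in co-culture + IL-1β than in control, with median log2 changes of 0.16, -0.03 and 0.16. The shares over all tested genes were 26.5% higher and 20.2% lower, 11.9% higher and 10.1% lower, and 21.8% higher and 12.2% lower in these comparisons. Ube2l6, the conjugating enzyme for ISG15, averaged 24.5 ± 1.10 FPKM in co-culture + IL-1β, 33.3 ± 0.793 FPKM in IL-1β and 10.8 ± 0.465 FPKM in control (log2 change 1.54 in IL-1β against control, adjusted p = 1.89e-09). The 4 that fell with IL-1β were Casp4, Parp12, Apol9a and Ifitm1, with log2 changes of -0.54, -0.32, -0.46 and -0.20. Slfn2 was the 1 gene higher in co-culture + IL-1β than in IL-1β (log2 change 0.25, adjusted p = 0.0494). The lists were chosen with earlier results of these data known.

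The interferon ligands in the table were at or near 0. Of 10 listed, 2 were in the table, Ifna5 and Ifne, and 8 are not analysed here. Ifna5 was listed at 0 in all libraries but 1, a co-culture + IL-1β library at 0.09 FPKM. Ifne, an epithelial type I interferon, was at 0.44, 0.49 and 0.33 FPKM in co-culture + IL-1β, at 0.18 FPKM in each IL-1β library and at 0.14, 0.22 and 0.11 FPKM in control. Every co-culture + IL-1β library lay above all others, at levels below the filter. The fit without a filter called Ifne higher in co-culture + IL-1β than in IL-1β (log2 change 0.27, adjusted p = 0.00893) and than in control (log2 change 0.30, adjusted p = 0.00306). The feedback inhibitor Socs3 averaged 37.9 ± 3.09 FPKM in co-culture + IL-1β, 57.5 ± 0.827 FPKM in IL-1β and 15.5 ± 1.43 FPKM in control, with a log2 change of 1.83 in IL-1β against control. Of the 12 tested feedback genes 5 were higher in IL-1β than in control, where 26.5% of all tested genes were, and the list's median log2 change was 0.07. Among 15 tested sensing adaptors and kinases, 7 were higher and 1 lower in IL-1β than in control, with a median log2 change of 0.14. Over all tested genes 26.5% were higher and 20.2% lower there. The sensing genes named next are the ones with the largest changes of that list. Tlr2, a receptor for bacterial lipoproteins, averaged 38.6 ± 5.11 FPKM in co-culture + IL-1β, 94.6 ± 2.32 FPKM in IL-1β and 2.85 ± 0.321 FPKM in control. The IKK-related kinase Ikbke averaged 4.60 ± 0.466 FPKM in co-culture + IL-1β, 7.57 ± 0.784 FPKM in IL-1β and 2.60 ± 0.159 FPKM in control. For scale, 10 NF-κB target genes were all higher in IL-1β than in control (median log2 change 2.47), all lower in co-culture + IL-1β than in IL-1β (median -0.91) and all higher in co-culture + IL-1β than in control (median 1.70). The matching shares of all tested genes were 26.5%, 10.1% and 21.8%. These 10 were listed as a readout of IL-1 with earlier results of these data known, so they serve as a scale only.

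**Figure D4:**
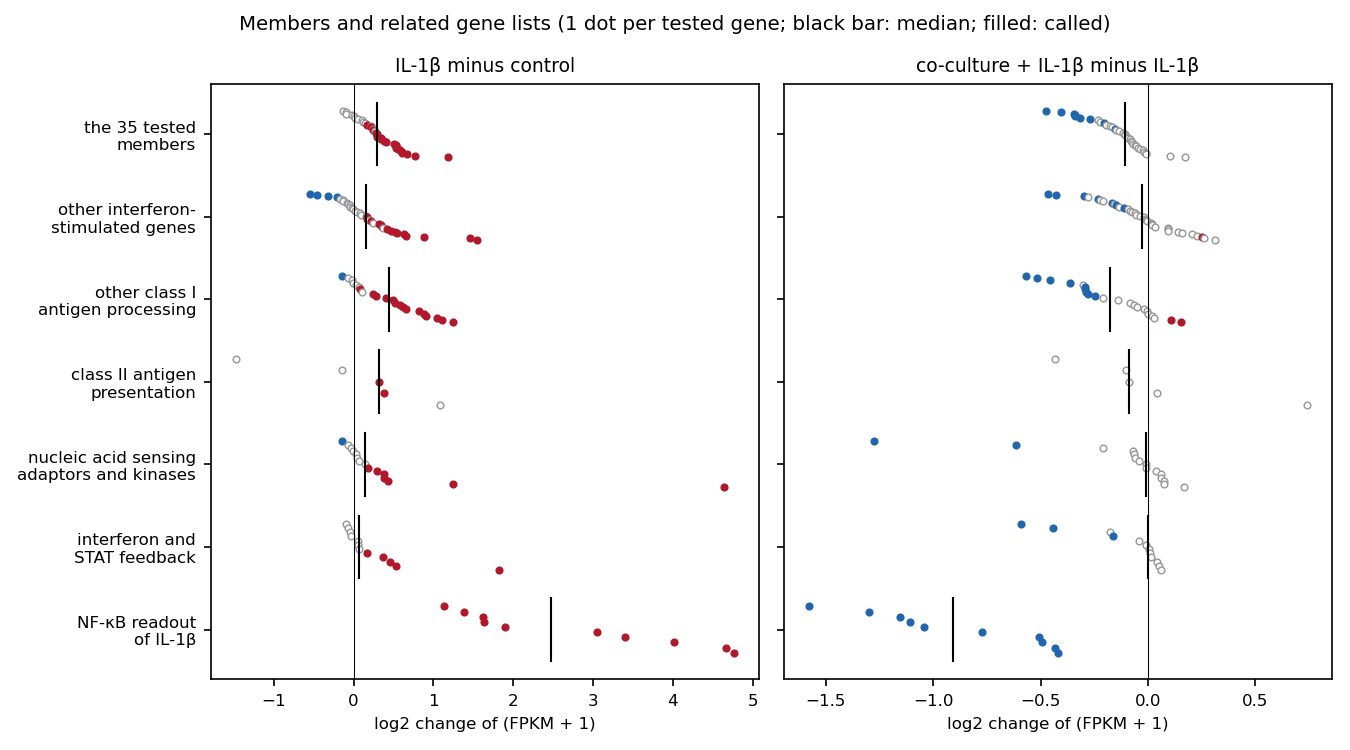
Log2(FPKM + 1) changes of the tested members and of the pathway lists in IL-1β against control (left) and in co-culture + IL-1β against IL-1β (right), on axes of different range; each point is a tested gene, filled where called, and the black bar is the list's median. The members' medians are 0.29 and -0.11, and those of the 10 NF-κB target genes are 2.47 and -0.91.

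Marker genes of cartilage and of other cells moved between the same groups. Chondrocyte markers (7 of 7 in the table, Col2a1 the highest) summed to 441 to 488 FPKM in co-culture + IL-1β, 303 to 319 FPKM in IL-1β and 1541 to 1619 FPKM in control, so the labelled cell type was present in every library. Macrophage and monocyte markers, all 12 of 12 in the table, summed to 24.6 to 26.3 FPKM in co-culture + IL-1β, 27.0 to 29.3 FPKM in IL-1β and 29.3 to 33.0 FPKM in control, but single markers moved in opposite directions. Of the 7 tested, 2 (Cd68 and Cd14) were higher and 2 (Lyz2 and Laptm5) lower in IL-1β than in control. Over all tested genes 26.5% were higher and 20.2% lower there, so these counts are near the general shares. Cd68 and Cd14 were lower in co-culture + IL-1β than in IL-1β, as were the 9 members and 10.1% of all tested genes. Cd68 averaged 2.68 ± 0.170 FPKM in co-culture + IL-1β, 3.66 ± 0.193 FPKM in IL-1β and 2.02 ± 0.117 FPKM in control. Cd14 averaged 13.9 ± 0.213 FPKM in co-culture + IL-1β, 16.0 ± 0.965 FPKM in IL-1β and 12.02 ± 0.290 FPKM in control. Lyz2, by contrast, averaged 2.60 ± 0.497 FPKM in co-culture + IL-1β, 1.96 ± 0.0513 FPKM in IL-1β and 9.20 ± 0.830 FPKM in control. The defining leukocyte gene Ptprc was at 0.10 FPKM or less in every library. T and NK cell markers (3 of 8 in the table) summed to at most 0.23 FPKM and dendritic and B cell markers (3 of 6) to at most 0.61 FPKM in any library. Endothelial markers (6 of 6) summed to 9.29 to 10.2 FPKM in co-culture + IL-1β, 9.31 to 9.95 FPKM in IL-1β and 12.8 to 13.9 FPKM in control. Dermal fibroblast markers (8 of 8) summed to 571 to 661 FPKM in co-culture + IL-1β, 1124 to 1190 FPKM in IL-1β and 169 to 181 FPKM in control, most of it Lum, a proteoglycan gene that cartilage also expresses. Of the 8, 5 were below the filter. Only 3 were under 1 FPKM in all libraries, among them Dpp4 at 0.11 FPKM or less. The part of these marker shifts in the members' changes was not tested. In bulk RNA, fewer cells of a type and less RNA per cell cannot be told apart.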

How the data were processed

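RNA of 9 chondrocyte libraries was sequenced after poly(A) capture and random priming, per the labels' protocols; no label says whether strand was kept, so overlapping and antisense genes could share reads. The authors deposited 1 table of FPKM values for 17588 genes, per the file headers; replicates were not pooled. Neither the aligner nor the counting tool or annotation is given in the sources used here. A mouse build (GRCm38) stands in the submitters' processing notes for these rat samples, but 16396 gene identifiers (93.2%) matched a rat GRCr8 gene table from RefSeq, which served for promoters. The build behind the values was not settled.

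FPKM sums were 809839 to 811665 in co-culture + IL-1β, 796262 to 832248 in IL-1β and 771058 to 782435 in control. Absolute depth is unknown. Steps between the lowest values put the worth of 1 read at 0.944 to 1.05 of that in control replicate 1, on only 3 to 18 genes. Ratios far from 1 were left out before these medians were taken. A large difference in depth could therefore not show, and like depth is not established. An exact 0 may be a failed estimate, so no fold is given against 0.

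Groups came from the sample titles. Genes with at least 1 FPKM in at least 3 libraries (11732) were fitted on log2(FPKM + 1) with limma (3.58.1, R 4.3.3) over all 9 libraries, using eBayes with a trend, and p-values (two-sided) were adjusted by Benjamini-Hochberg over all tested genes in each comparison; a call is an adjusted p under 0.05. Prior degrees of freedom were 3.64. Folds beside FPKM are ratios of means. The procedure was tested on simulated data. Figures used matplotlib 3.10.9 and other steps Python 3.11.15.

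Alternatives were a pseudocount of 0.1, no filter, a mean of at least 5 FPKM, common-sum, median-of-ratios and quantile scaling, only the 6 libraries compared, no trend, a replicate block and leaving out each library. The members and lists were chosen with earlier results of these data known. By rule, every library is printed for up to 12, 8 and 6 called members with the largest changes in IL-1β against control, co-culture + IL-1β against IL-1β, and co-culture + IL-1β against control; B2m in the second, Irf7, Mx2 and Gbp5 were added after their values were seen. Other genes come from the lists, up to 3 called per list and comparison with the smallest p; the genes of a small count and the silent ones were added after seeing their values. Promoters were limited to the bases before the start.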

Additional observations from a re-analysis of the deposited data

How the results depend on the processing

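Of the 22 members called in IL-1β against control, 18 were called under every alternative that tested them, and so were 5 of 9 in co-culture + IL-1β against IL-1β and 10 of 18 in co-culture + IL-1β against control; no called member changed direction. In IL-1β against control, 1 member was lower with no filter (Mx2), with a common sum and with quantile scaling (Trim25), against 0 as reported. In co-culture + IL-1β against control, 11 members were higher with a mean of at least 5 FPKM (20 members tested) and 11 with quantile scaling, against 17, and lower members numbered 2 with no filter and 0 with a mean of at least 5 FPKM or with only the 6 libraries, against 1. Leaving out each library gave 20 to 22 higher members in IL-1β against control, 5 to 8 lower in co-culture + IL-1β against IL-1β, and 13 to 14 higher and 0 to 1 lower in co-culture + IL-1β against control. Fewer libraries were fitted there; the cause of the other shifts was not tested. The replicate block gave 22 higher, 8 lower and 17 higher members in the 3 comparisons and 5201, 2266 and 3681 called genes, against 5479, 2581 and 3981; libraries with the same number correlated at -0.0907 to 0.0855 after removing group means, so the numbers were not taken as pairs. Without counts, the depth behind the near-silent members is unknown, and differences among them were not detectable with confidence.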
